A study of Mus musculus with 6 samples.

Results

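Heat shock and endoplasmic reticulum (ER) stress genes were followed in sorted mouse hepatocytes. The members were 46 genes listed by function. The rule used no measured value, but the list was drawn up with earlier results of these data known. They comprised 19 cytosolic chaperones and cochaperones, the 2 subunits of the mitochondrial chaperonin, 18 ER chaperones and degradation factors, and 7 genes of the Xbp1 and ATF4 branches of the unfolded protein response. Each gene was read through the brightest probe set annotated with that symbol alone. Of the 46 genes, 45 had such a probe set, out of 12393 genes on the array, and Hsp90ab1, the constitutive cytosolic Hsp90, had none. The tests ran on 43 members among 9295 genes, because Hspa1a, at a mean log2 intensity of 3.92, and the small heat shock protein gene Cryab, at 4.72, fell below the cutoff for dim genes of 5.06.

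Tetraploid hepatocytes were set against diploid hepatocytes, with 3 arrays each. All cells came from wild-type C57BL/6 mice aged 3 weeks, and no allele, diet or drug distinguished the fractions. Freshly isolated living hepatocytes were stained with a Hoechst dye, sorted by DNA content and lysed at once for total RNA. The replicates are labelled biological but no animal is named, and a p-value here reflects the spread among these 6 arrays, part of which may be technical. A sort by DNA content can leave diploid cells in G2 in the tetraploid fraction, and in bulk RNA fewer expressing cells and less RNA per cell cannot be told apart.

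Cytosolic chaperones keep new and damaged proteins folded, and their stress-induced members are transcribed by the heat shock factor Hsf1 from heat shock elements in their promoters. In the ER, a separate set of chaperones folds secreted proteins, and the unfolded protein response raises them through the sensors Atf6, Ern1 (which splices Xbp1) and Eif2ak3 (PERK, which favours translation of Atf4). Hepatocytes secrete most plasma proteins and carry an extensive ER.

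Promoter motifs known for each system are shown because most of their matches fell in one compartment. Promoters (250 bases before to 50 bases from each start, RefSeq, build GRCm38.p6) were found for 40 of the 46 genes, as 47 promoters. Searched on both strands, the ER stress element (CCAAT, any 9 bases, then CCACG) lay in promoters of 8 members, all of them among the 16 ER genes with a promoter, and in 0.119% of all 32851 promoters in the table. Below, the element is in capitals with its flanks in lower case, each read in the direction of the element.
Hspa5 (chr2:34772015-34772053, plus strand): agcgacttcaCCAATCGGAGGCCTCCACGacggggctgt
Hsp90b1 (chr10:86705523-86705561, plus strand): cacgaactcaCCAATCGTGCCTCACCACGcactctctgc
Creld2 (chr15:88819510-88819548, minus strand): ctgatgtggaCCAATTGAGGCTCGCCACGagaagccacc
Canx (chr11:50325790-50325828, minus strand): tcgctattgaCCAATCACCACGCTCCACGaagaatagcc
Syvn1 (chr19:6046522-6046560, plus strand): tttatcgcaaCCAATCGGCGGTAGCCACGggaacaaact

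The other 3 ER members with the element were Calr, Dnajc3 and Pdia6, and Hsp90b1 held a second copy. The motif TGATGNAA, a C/EBP-ATF response element bound by Atf4, was found in Asns, Chac1 and Trib3 of the 7 Xbp1 and ATF4 branch genes and in the ER gene Herpud1, against 3.97% of all promoters. These matches are shown with the motif in capitals.
Asns (chr6:7693215-7693242, minus strand): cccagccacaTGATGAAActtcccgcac
Chac1 (chr2:119351039-119351066, minus strand): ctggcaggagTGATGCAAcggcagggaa
Trib3 (chr2:152344029-152344056, plus strand): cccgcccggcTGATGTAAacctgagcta
Herpud1 (chr8:94386307-94386334, minus strand): gggtgcgggcTGATGCAAcccgccgtgg

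The heat shock core GAANNTTC, a pair of facing units, lay in 9 of the 15 cytosolic members with a promoter, in both mitochondrial members and in Asns, against 7.86% of all promoters. In Asns it overlapped the C/EBP-ATF match. A run of 3 units (GAANNTTCNNGAA, which contains the core) occurred in 0.603% of promoters and in 4 members: Chordc1, Hsph1, Hspd1 and Hspe1. Hspd1 and Hspe1 are transcribed away from each other, and a single stretch between them gave the match for both. The same stretch around the core stood in front of Hspa1a and Hspa1b, neighbouring genes for nearly identical Hsp70 proteins on chromosome 17. Capitals mark the motif.
Hspe1 and Hspd1 (chr1:55088054-55088086, plus strand): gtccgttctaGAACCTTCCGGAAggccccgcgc
Hspa1a (chr17:34972243-34972270, minus strand): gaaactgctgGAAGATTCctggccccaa
Hspa1b (chr17:34959325-34959352, minus strand): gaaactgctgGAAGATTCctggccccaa

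The arrays were alike, with Pearson correlations across probe sets of 0.992 to 0.997 for the 15 pairs of arrays. Of the hepatocyte markers, 10 of 12 had a probe set, and their mean log2 intensity was 14.34 to 14.59 on tetraploid and 14.35 to 14.57 on diploid arrays. The mean over endothelial markers was 6.11 to 6.31 on tetraploid and 6.01 to 6.16 on diploid arrays. Markers of leukocytes, stellate cells, cholangiocytes and erythroid cells averaged 4.91 to 5.75 on tetraploid and 4.91 to 5.85 on diploid arrays, near the cutoff for dim genes. Of the markers with a probe set, 7 of 12 for leukocytes, 6 of 10 for stellate cells, 2 of 5 for cholangiocytes and 1 of 4 for erythroid cells exceeded the cutoff. Ptprc, the pan-leukocyte gene, averaged 4.23 and Col1a1, the collagen gene of stellate cells, 4.92, both below the cutoff. The Kupffer cell gene Clec4f averaged 5.54 and the cholangiocyte gene Krt19 5.39. Of 9 endothelial markers above the cutoff, 8 were higher and 1 lower in tetraploid cells, with a median log2 difference of 0.20. At an unadjusted limma p under 0.05 there were 3, all higher, against 6.18% of all genes, and 0 passed an adjusted p of 0.05. The fractions did not overlap for 2 of them, against 12.3% of all genes. The part of the endothelial markers in the differences below was not tested.

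No heat shock or ER stress gene passed the test between tetraploid and diploid hepatocytes, and the medians of the cytosolic and the ER genes were close to each other. Of the 43 tested members, 24 were higher and 19 lower on average in tetraploid cells, and 0 passed an adjusted p of 0.05 by limma, where 0% of all 9295 genes did. At an unadjusted p under 0.05 there was 1 member, the Hsp110-family gene Hspa4l, against 6.18% of all genes. The values of the fractions did not overlap for 3 members (Hspa4l and Edem1 higher, Ppp1r15a lower), against 12.3% of all genes. The smallest adjusted p of a member was 0.730.

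The 16 tested cytosolic chaperones were divided evenly, with 8 higher and 8 lower in tetraploid cells and a median log2 difference of 0.02. Among the 25 ER and unfolded protein response genes, 15 lay above and 10 below the diploid mean, and the median difference was 0.03. The median over all genes tested was -0.01. The difference between the median of the cytosolic and that of the ER and unfolded protein response genes was -0.01, and it lay between -0.09 and 0.05 when each array was left out in turn. For 35 of 43 members the 95% interval of the difference lay within a 1.5-fold change either way, a share of 81.4% against 92.4% of all genes tested. The other 8, whose intervals were wide enough to hold a larger change, were Hspa1b, Hsph1, Hyou1, Manf, Creld2, Herpud1, Trib3 and Chac1.

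**Figure D1:**
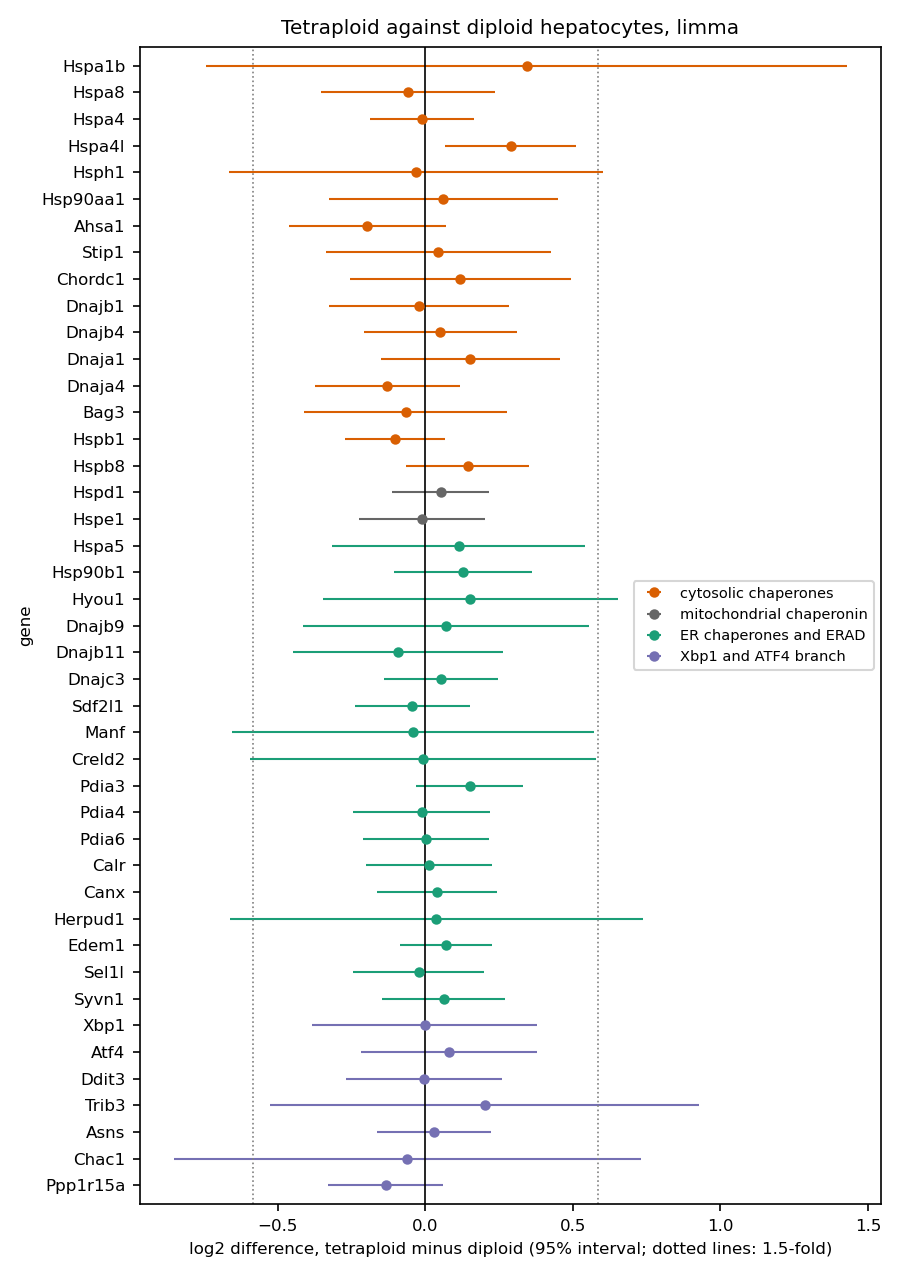
Log2 difference, tetraploid minus diploid, of the 43 tested members (points) with 95% intervals from limma (bars), coloured by compartment. Hspa4l is the member whose interval, 0.07 to 0.51, does not reach 0, and the widest interval, for Hspa1b, runs from -0.74 to 1.43.

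Among the cytosolic Hsp70 genes, Hspa1b, the classical stress-inducible member, was at log2 intensities of 8.90, 10.19 and 10.02 on tetraploid arrays 1 to 3, against 8.40, 9.73 and 9.95 on diploid arrays 1 to 3. Replicate 1 was the low array in each fraction, and the fractions overlapped. The spread within a fraction was 2.45-fold among tetraploid and 2.92-fold among diploid arrays, while the log2 difference between the fractions was 0.34 ± 0.47 (SE, n = 3 per fraction). It was -0.13 without diploid replicate 1 and 0.75 without tetraploid replicate 1. Its other 2 probe sets had the same low arrays and differed by 0.30 and 0.25. Probes for Hspa1b can bind the near-identical Hspa1a transcript, so these values are uncertain as to the gene, and the single Hspa1a probe set was dim on all arrays, at 3.84 to 4.07 in tetraploid and 3.86 to 3.95 in diploid cells.

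Hsph1, the stress-inducible Hsp110 that recharges Hsp70 with nucleotide, was at 8.47, 8.88 and 9.35 on the tetraploid arrays, against 8.63, 9.44 and 8.73 on the diploid arrays. Tetraploid replicate 3 and diploid replicate 2 stood above the others, and the log2 difference was -0.03 ± 0.27 (SE). Its relative Hspa4l was at 8.09, 8.13 and 8.21 on the tetraploid arrays, against 7.83, 8.02 and 7.71 on the diploid arrays. The fractions did not overlap, and the log2 difference was 0.29 ± 0.10 (SE), with a limma adjusted p = 0.730 over all genes. A second probe set for Hspa4l, at a mean of 7.66, differed by -0.01, so the 2 probe sets disagreed. Hspa8, the constitutive Hsc70, was at 12.52, 12.48 and 12.83 in tetraploid cells, against 12.51, 12.86 and 12.63 in diploid cells, with a difference of -0.06 ± 0.13 (SE). Hspa4, the remaining Hsp110 relative, differed by -0.01 ± 0.08 (SE), while a dimmer probe set for it, at a mean of 8.11, differed by 0.28 without overlap.

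Of the cytosolic Hsp90 group, Hsp90aa1, the inducible Hsp90, was at 12.24, 11.75 and 12.22 on the tetraploid arrays, against 11.96, 12.27 and 11.80 on the diploid arrays. The fractions overlapped, with a log2 difference of 0.06 ± 0.17 (SE). The cochaperone Ahsa1, which stimulates the Hsp90 ATPase, was at 10.54, 10.45 and 10.82 in tetraploid cells, against 10.93, 10.76 and 10.71 in diploid cells. Its difference of -0.20 ± 0.11 (SE) was the lowest of any member, and tetraploid replicate 3 lay within the diploid range. Chordc1, an Hsp90 partner with 3-unit heat shock elements at its start, was at 9.54, 9.69 and 9.96 in tetraploid cells, against 9.36, 9.91 and 9.57 in diploid cells. Stip1, which bridges Hsp70 and Hsp90, differed by 0.04 ± 0.16 (SE).

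The J-domain proteins feed substrates to Hsp70. Dnajb1, the main stress-inducible one, was at 8.91, 9.07 and 9.18 on the tetraploid arrays, against 8.80, 9.21 and 9.21 on the diploid arrays, a difference of -0.02 ± 0.13 (SE). Dnaja1 was at 12.23, 12.49 and 12.55 in tetraploid cells, against 12.05, 12.46 and 12.29 in diploid cells. In both genes and both fractions replicate 1 was the lowest array, as it was for Hspa1b. A dimmer Dnajb1 probe set, at a mean of 8.33, was also lowest on tetraploid replicate 1 but highest on diploid replicate 1. Dnaja4 was at 5.12, 5.49 and 5.42 in tetraploid cells, against 5.51, 5.47 and 5.44 in diploid cells, close to the cutoff for dim genes. Dnajb4 and Bag3, the nucleotide exchange factor of selective autophagy, differed by 0.05 ± 0.11 and -0.07 ± 0.15 (SE).

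The small heat shock proteins hold unfolding proteins without ATP. Hspb1 was at 6.28, 6.28 and 6.41 on the tetraploid arrays, against 6.44, 6.45 and 6.39 on the diploid arrays, and the single overlap came from tetraploid replicate 3 and diploid replicate 3. Hspb8, the partner of Bag3, was at 10.21, 10.27 and 10.37 in tetraploid cells, against 9.9998, 10.24 and 10.18 in diploid cells, and differed by 0.14 ± 0.09 (SE). The mitochondrial chaperonin folds imported proteins. Hspd1 (Hsp60) was at 13.26, 13.35 and 13.27 in tetraploid cells, against 13.19, 13.29 and 13.25 in diploid cells. Its cofactor Hspe1 was at 13.28, 13.08 and 13.13 in tetraploid cells, against 13.31, 13.13 and 13.08 in diploid cells. The 95% intervals of these differences ran from -0.11 to 0.22 for Hspd1 and from -0.22 to 0.20 for Hspe1.

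In the ER, Hspa5 (BiP), the central Hsp70 of that compartment, was at 13.46, 13.18 and 13.78 on the tetraploid arrays, against 13.30, 13.67 and 13.12 on the diploid arrays. The fractions overlapped, and the log2 difference was 0.11 ± 0.18 (SE). Hsp90b1 (GRP94), the ER Hsp90, was at 13.38, 13.30 and 13.47 in tetraploid cells, against 13.12, 13.43 and 13.21 in diploid cells. Hyou1, which recharges BiP, was at 9.99, 9.39 and 10.04 in tetraploid cells, against 9.67, 9.96 and 9.32 in diploid cells. For Hspa5, Hyou1 and Hsp90b1 the top array was tetraploid replicate 3 in one fraction and diploid replicate 2 in the other.

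Creld2, a secreted ER stress protein, was at 9.42, 8.83 and 9.77 on the tetraploid arrays, against 9.41, 9.64 and 8.996 on the diploid arrays. Its means differed by -0.01 ± 0.25 (SE), while its tetraploid arrays spanned 1.92-fold and its diploid arrays 1.56-fold. Manf, another secreted ER stress protein, was chosen after its values were seen. It was at 11.07, 10.49 and 11.35 in tetraploid cells, against 11.14, 11.35 and 10.55 in diploid cells, so tetraploid replicate 2 and diploid replicate 3 were the low arrays of both genes. Sdf2l1, which helps BiP to hold substrates, was at 9.47, 9.53 and 9.60 in tetraploid cells, against 9.5045, 9.70 and 9.53 in diploid cells. The J-domain cofactors of BiP differed by 0.07 ± 0.21 for Dnajb9, -0.09 ± 0.15 for Dnajb11 and 0.05 ± 0.08 for Dnajc3 (SE).

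The disulfide isomerases and lectin chaperones, which oxidise and check glycoproteins, had narrower spreads than the BiP group. Pdia3 had the smallest p of this group, at 12.62, 12.71 and 12.73 on the tetraploid arrays, against 12.48, 12.64 and 12.49 on the diploid arrays. Its log2 difference was 0.15 ± 0.08 (SE), with a limma adjusted p = 0.834, and tetraploid replicate 1 lay below the highest diploid array. The membrane lectin gene Canx was at 12.47, 12.45 and 12.65 in tetraploid cells, against 12.46, 12.58 and 12.41 in diploid cells. The soluble lectin gene Calr differed by 0.01 ± 0.09, and Pdia4 and Pdia6 by -0.01 ± 0.10 and 0.002 ± 0.092 (SE). A dimmer Pdia4 probe set, at a mean of 5.49, differed by -0.26 without overlap.

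ER-associated degradation exports misfolded proteins to the proteasome. Herpud1, a membrane scaffold of that pathway, was at 12.18, 13.20 and 12.77 on the tetraploid arrays, against 12.20, 12.70 and 13.13 on the diploid arrays. Replicate 1 was the low array in each fraction, the spread was 2.03-fold among tetraploid and 1.90-fold among diploid arrays, and the difference was 0.04 ± 0.30 (SE). Edem1, which presents mannose-trimmed glycoproteins for export, had the narrowest spread of any member. It was at 11.00, 10.99 and 11.01 in tetraploid cells, against 10.89, 10.98 and 10.92 in diploid cells, without overlap but with a difference of only 0.07 ± 0.07 (SE). The ubiquitin ligase gene Syvn1 was at 8.11, 8.15 and 8.36 in tetraploid cells, against 8.16, 8.19 and 8.07 in diploid cells. Its partner Sel1l differed by -0.02 ± 0.09 (SE), and its 2 dimmest probe sets by 0.31 and 0.29.

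Of the transcription factors of the response, Xbp1 was at 12.73, 12.32 and 12.81 on the tetraploid arrays, against 12.70, 12.82 and 12.36 on the diploid arrays. The log2 difference was -0.002 ± 0.163 (SE), and tetraploid replicate 2 and diploid replicate 3 were again the low arrays. Dimmer probe sets for Xbp1 differed by 0.16, 0.17 and 0.09. Splicing of the Xbp1 transcript was not examined. Atf4 was at 11.02, 10.81 and 10.70 in tetraploid cells, against 11.00, 10.62 and 10.68 in diploid cells. Ddit3 (CHOP), the proapoptotic factor downstream of Atf4, was at 7.20, 7.07 and 6.99 in tetraploid cells, against 7.29, 6.91 and 7.07 in diploid cells. Their log2 differences were 0.08 ± 0.13 for Atf4 and -0.003 ± 0.113 for Ddit3 (SE). A second Atf4 probe set, at a mean of 8.82, differed by 0.29 without overlap between the fractions, and the dimmest, at 5.18, by -0.03, so the probe sets for Atf4 disagreed.

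Targets of Atf4 went different ways from array to array. Trib3, a pseudokinase that restrains Akt in liver, was at 7.99, 8.40 and 7.58 on the tetraploid arrays, against 7.61, 7.31 and 8.45 on the diploid arrays. Tetraploid replicate 2 and diploid replicate 3 were its high arrays, the reverse of Xbp1, Manf and Creld2, and its second probe set had the same high arrays. Chac1, which degrades glutathione, was chosen after its values were seen. It was at 7.98, 8.85 and 8.73 in tetraploid cells, against 7.86, 8.87 and 9.02 in diploid cells, with replicate 1 low in each fraction. Asns, the asparagine synthetase, was at 7.16, 7.23 and 7.23 in tetraploid cells, against 7.31, 7.15 and 7.08 in diploid cells. A dimmer Asns probe set, at a mean of 6.55, differed by 0.23. Ppp1r15a (GADD34), which reverses the PERK signal, was at 7.19, 7.14 and 7.09 in tetraploid cells, against 7.41, 7.21 and 7.20 in diploid cells. The fractions did not overlap, with a difference of -0.13 ± 0.08 (SE) and a limma adjusted p = 0.856.

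**Figure D2:**
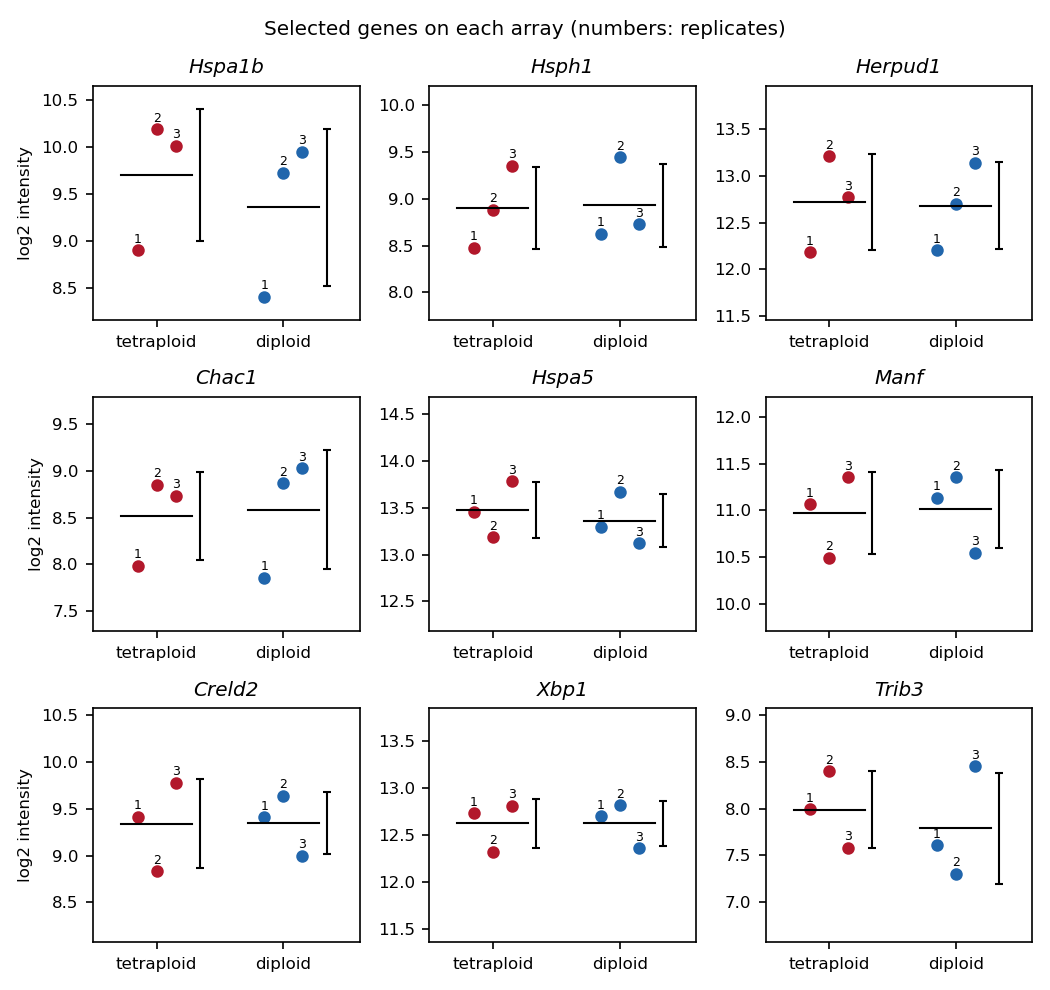
Log2 intensity of 9 members on each array, with tetraploid (red) left of diploid (blue), the replicate number over each point, the mean as a line and the SD beside it (n = 3). All panels span the same number of log2 units. Replicate 1 is low in both fractions for Hspa1b, Herpud1 and Chac1, and tetraploid replicate 2 and diploid replicate 3 are low for Manf, Creld2 and Xbp1 and high for Trib3.

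Many members spread widely between arrays of the same fraction. The median SD within a fraction, from the limma residuals, was 0.16 over the 43 members and 0.12 over all genes tested. Of the members, 14 (32.6%) were above the 90th percentile of all genes for this SD, against 10% of all genes by construction. They were 5 cytosolic, 6 ER and 3 Xbp1 and ATF4 branch genes. Hspa1b had an SD of 0.77, at the 99.8th percentile, Chac1 0.56, Trib3 0.51 and Herpud1 0.49. Hspd1 (0.05), Hspb1 (0.06) and Edem1 (0.03) were at the quiet end. Of 5 disulfide isomerase and lectin genes, 0 were above that percentile, against 5 of 9 genes of the BiP and GRP94 group.

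The array on which a gene was highest was often the same across members. Among the 18 ER members, 16 were highest of their fraction on tetraploid replicate 3, against 34.2% of all genes, and 15 on diploid replicate 2, against 26.6% of all genes. Over the 37 probe sets of the ER members above the dim cutoff, 30 were highest on tetraploid replicate 3 and 29 on diploid replicate 2. Of the 16 cytosolic members, 12 were highest on tetraploid replicate 3 and 12 on diploid replicate 2. No cytosolic or ER member was the lowest of its fraction on either of these arrays. The 7 Xbp1 and ATF4 branch genes did not share that order as a group, with 2 highest on tetraploid replicate 3 and 1 on diploid replicate 2. Xbp1 itself did share it, and was highest of its fraction on both of these arrays. These counts were made after the values were seen, and genes of one array are not independent. The arrays of the fractions may not be independent either. Across genes, the deviations of tetraploid replicate 3 and diploid replicate 2 from their fraction means correlated at 0.384. The correlation was 0.574 for replicate 1 of each fraction and 0.695 for tetraploid replicate 2 with diploid replicate 3.

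The pattern can be put as a score for each array, taken as the log2 value of a gene minus its own mean over the 6 arrays, averaged over the genes of a group. The cytosolic score was -0.14, 0.002 and 0.19 on tetraploid arrays 1 to 3, against -0.17, 0.15 and -0.03 on diploid arrays 1 to 3. The ER score was -0.05, -0.08 and 0.18 on the tetraploid arrays, against -0.09, 0.13 and -0.10 on the diploid arrays. The Xbp1 and ATF4 branch score lay between -0.03 and 0.07 on the tetraploid and between -0.07 and 0.07 on the diploid arrays. The genes behind that score were not steady, as 3 of the 7 exceeded the 90th percentile of all genes for SD within a fraction. They also differed in order, with Trib3 high on the arrays where Xbp1 was low. The cytosolic score was lowest on replicate 1 of each fraction.

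**Figure D3:**
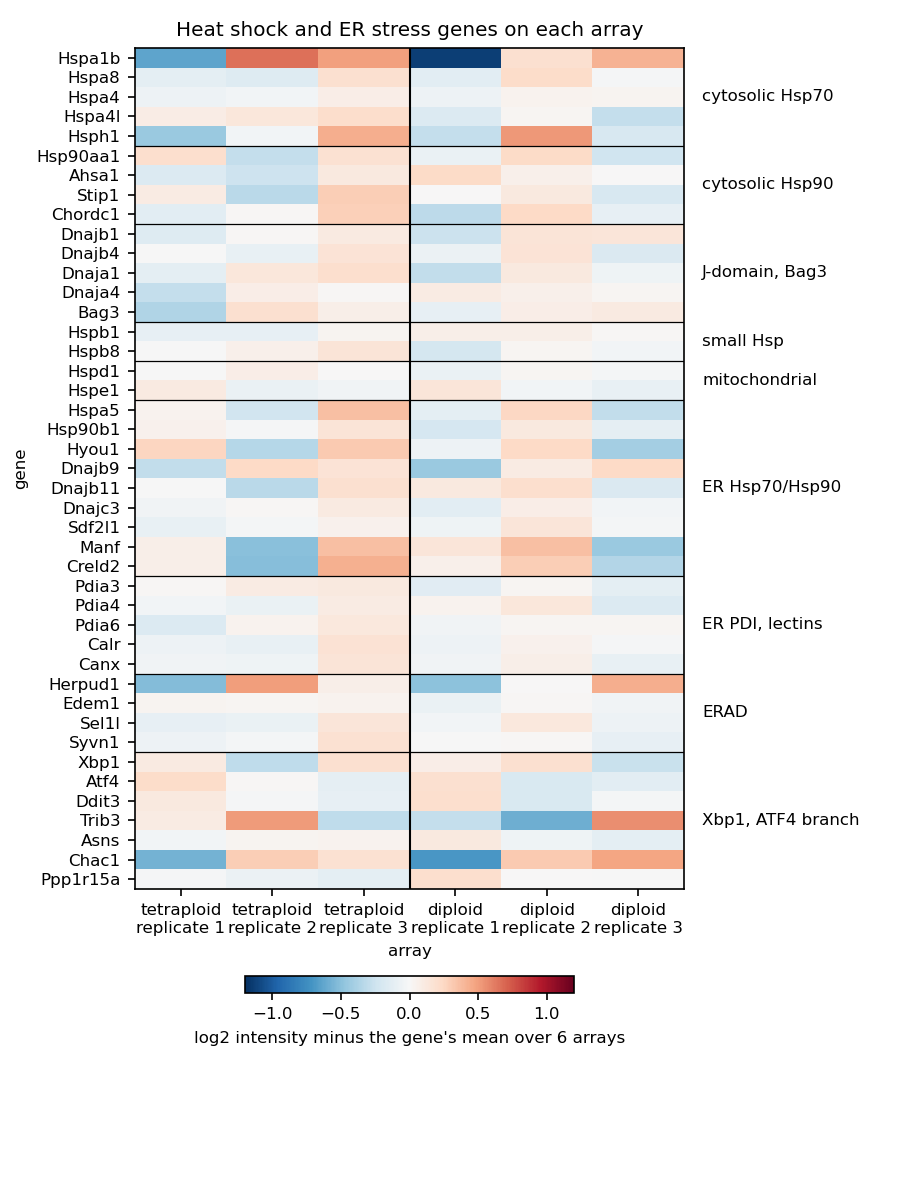
Log2 intensity of each of the 43 tested members minus its mean over the 6 arrays (colour), on tetraploid arrays (left) and diploid arrays (right), grouped by role. The columns of tetraploid replicate 3 and diploid replicate 2 are warm for most chaperones, and the blue cells of Hspa1b, Herpud1 and Chac1 fall on replicate 1 of each fraction.

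Other genes moved with these arrays. Immediate-early genes, which are switched on within minutes when cells are disturbed, ran nearly the opposite way. Of 20 tested, 12 were lowest of their fraction on tetraploid replicate 3 and 16 on diploid replicate 2. Their score was 0.17, 0.03 and -0.10 on the tetraploid arrays, against 0.14, -0.25 and 0.003 on the diploid arrays. The score of 10 hepatocyte markers was -0.16 on tetraploid and -0.14 on diploid replicate 1, and 0.05 to 0.09 on the other tetraploid and 0.07 to 0.08 on the other diploid arrays. That score rested mainly on Tat and Pck1, whose SD within a fraction was 0.61 and 0.51, while it was 0.14 or less for each of the other 8 markers. Pck1, an enzyme of gluconeogenesis chosen after its values were seen, was at 12.98, 13.95 and 13.72 on the tetraploid arrays, against 12.93, 13.88 and 13.76 on the diploid arrays. Markers of some other cells, though not of all, were high on some of the same arrays. The score of 7 Kupffer cell and other leukocyte markers was -0.04, -0.11 and 0.07 on the tetraploid arrays, against -0.05, 0.15 and -0.02 on the diploid arrays, so it too was highest on tetraploid replicate 3 and diploid replicate 2. The score of 9 endothelial markers was 0.01, -0.01 and 0.25 on the tetraploid arrays, against -0.16, 0.03 and -0.13 on the diploid arrays, with the same high arrays. That of 6 stellate cell markers was 0.03, -0.03 and -0.01 on the tetraploid arrays, against 0.13, -0.03 and -0.10 on the diploid arrays. The score of 2 cholangiocyte markers was highest on tetraploid replicate 3, at 0.08, but lowest on diploid replicate 2, at -0.15. The 1 erythroid marker was highest on both of these arrays. The part of the immediate-early genes, the hepatocyte markers and the markers of other cells in the spread of the chaperones was not tested.

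**Figure D4:**
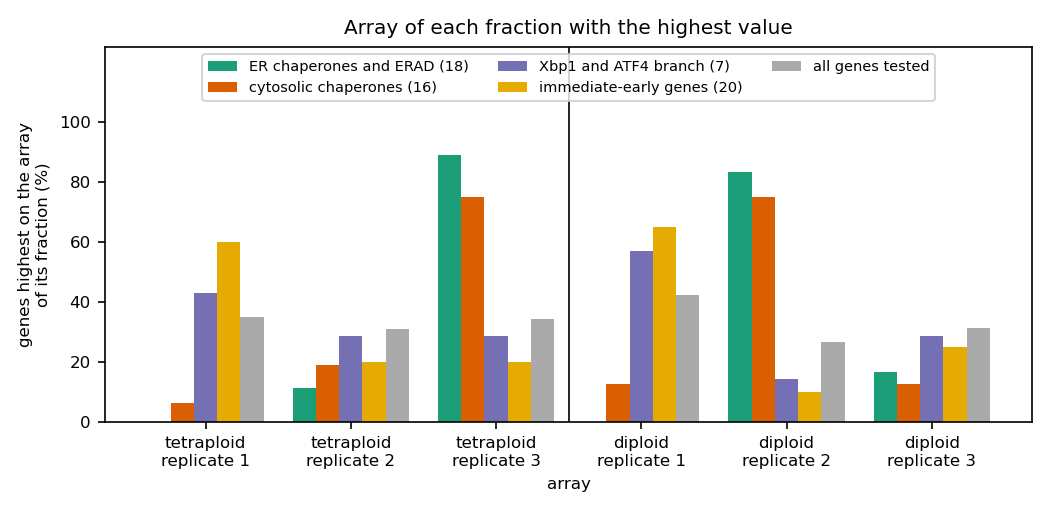
Share of genes whose highest value within their fraction fell on each array (bars, percent), for tetraploid arrays (left) and diploid arrays (right). ER members peaked on tetraploid replicate 3 in 16 of 18 cases and on diploid replicate 2 in 15 of 18, and the immediate-early genes most often on replicate 1 of each fraction.

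The rest of both pathways showed small differences. By limma, 0 genes of any of these lists passed the adjusted threshold, so those with the smallest unadjusted p are given as values. Of 25 further heat shock factors and cytosolic chaperones, 12 were higher and 13 lower in tetraploid cells. Hsf2, a heat shock factor active in development, was at 7.71, 8.09 and 7.84 in tetraploid cells, against 7.09, 7.69 and 7.52 in diploid cells, a difference of 0.45 ± 0.17 (SE). Hspa14, a ribosome-associated Hsp70, was at 7.90, 7.91 and 8.08 in tetraploid cells, against 8.17, 8.15 and 8.28 in diploid cells, and differed by -0.24 ± 0.08 (SE). Neither gene's fractions overlapped, and the limma adjusted p was 0.779 for Hsf2 and 0.757 for Hspa14. The 13 TRiC chaperonin and prefoldin genes, which fold actin and tubulin, had 7 higher and 6 lower, and the 11 mitochondrial chaperones and proteases 3 higher and 8 lower.

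Among 18 sensors and transcription factors of the unfolded protein response, 15 were higher and 3 lower in tetraploid cells, with a median log2 difference of 0.06. The sensor genes differed by 0.15 ± 0.12 for Ern1, 0.12 ± 0.07 for Eif2ak3 and -0.11 ± 0.11 for Atf6 (SE). Creb3l1, a relative of Atf6, was near the cutoff for dim genes, at 4.90, 4.87 and 5.07 in tetraploid cells, against 5.44, 5.27 and 5.05 in diploid cells, a difference of -0.30 ± 0.11 (SE). Of 21 further ATF4 target genes, 4 lay above and 17 below the diploid mean, and the median difference was -0.08. By limma, 0 of them were at an unadjusted p under 0.05, against 6.18% of all genes. Over all genes tested, 4439 were higher and 4856 lower in tetraploid cells. The direction of a list as a whole was not tested.

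Of 24 genes of ER folding, glycosylation and oxidation, 7 were higher and 17 lower in tetraploid cells, with a median of -0.03. Ero1b, an oxidase that recharges disulfide isomerases, was at 9.70, 9.63 and 10.02 in tetraploid cells, against 10.05, 10.24 and 9.96 in diploid cells, a difference of -0.30 ± 0.12 (SE). Txndc12, a thioredoxin-like ER protein, was at 9.23, 9.30 and 9.29 in tetraploid cells, against 9.45, 9.42 and 9.43 in diploid cells, a difference of -0.16 ± 0.07 (SE). The 19 genes of ER translocation and signal peptide removal had 15 higher and 4 lower and a median difference of 0.03. The 20 other ER-associated degradation genes had 10 higher and 10 lower. In that last list, Edem2, a relative of Edem1, was at 8.42, 8.33 and 8.41 in tetraploid cells, against 8.28, 8.24 and 8.14 in diploid cells, a difference of 0.17 ± 0.07 (SE). Of the 24 ER folding genes, 0 exceeded the 90th percentile of SD within a fraction. Of the 25 ER and unfolded protein response members 9 did, against 10% of all genes by construction. The count was also 0 for the mitochondrial, TRiC and prefoldin, ER translocation and other ER-associated degradation lists. It was 4 of the 25 further heat shock factors and cytosolic chaperones. It was 3 of the 18 sensors and transcription factors and 3 of the 21 further ATF4 targets. Of the 20 immediate-early genes 9 exceeded it, so a wide spread was not particular to the members.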

How the data were processed

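Total RNA of 6 sorted samples was hybridised as biotin-labelled cRNA to Affymetrix arrays. The authors deposited an intensity for every probe set on every array. Judged from the values, the scale is linear, and the medians of the arrays were 86.4 to 89.2. The submitters' processing notes name RMA, which corrects background and equalises the arrays, so a difference in total RNA per cell is removed. The RMA version is not given in the sources used here.

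Analysis used the log2 of each intensity. Of 22690 probe sets, 64 were controls, 20380 had 1 gene symbol, 691 several and 1555 none. RefSeq identifiers matched 20351 of them and changed 0 symbols. The brightest probe set stood for each of 12393 genes, and the 25% with the lowest mean (3098 genes) were left out. For 28 tested members with several probe sets, 11 had one of opposite sign. Limma 3.58.1 in R 4.3.3 (lmFit, eBayes, two-sided, ploidy as the only factor) was fitted to 9295 genes with Benjamini-Hochberg adjustment at 0.05. The median SE of a log2 difference was 0.10, and the number of arrays limits the precision. The test was checked on simulated data with independent noise for each gene and array. That check does not cover genes or arrays that vary together.

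The members and lists were chosen with earlier results of these data known. Genes were shown by array if they were defining members or had the 2 smallest p of their role. In other lists the 2 genes per direction with the smallest unadjusted p under 0.05 were named. Genes outside this rule are marked, except the sensor genes Ern1, Eif2ak3 and Atf6 and the cell type markers Ptprc, Col1a1, Clec4f, Krt19 and Tat. The columns of the table all belonged to these samples. Promoters were searched in Python 3.11.15. Alternatives covered the filter on dim genes, the probe set, normalization, the log transform with a pseudocount of 16, moderation, array weights, the replicate block and leaving out each array.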

Additional observations from a re-analysis of the deposited data

How the results depend on the processing

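The numbers of the replicates do not pair all arrays of the fractions. The deviations of same-numbered arrays from their fraction means correlated across genes at 0.574, -0.195 and -0.200 for replicates 1 to 3. Between arrays of different number, the highest correlations were 0.695 for tetraploid replicate 2 with diploid replicate 3 and 0.384 for tetraploid replicate 3 with diploid replicate 2. Not every array thus correlated best with its own number, a hint from the data and not from the design that arrays of the fractions may share a source under other numbers. No crossed pairing was fitted, and the SEs and intervals treat the arrays as independent. With the replicate number as a block, 9 genes passed the adjusted threshold, 0 of them members. In that fit 2 of 43 members, Hspa1b and Hspa4l, had an unadjusted limma p under 0.05, against 549 of all 9295 genes. Leaving out each array gave 0 to 1 genes past the threshold. It gave 0 to 1 of 43 members with an unadjusted limma p under 0.05, against 378 to 639 of all 9295 genes. The count of members was 0 without diploid replicate 3, and Ahsa1 took the place of Hspa4l without tetraploid replicate 3. There were 0 such members with the mean of all probe sets, against 636 of 9295 genes. With only probe sets that have no letter suffix before _at in their name there were 0, against 532 of 7897 genes. With trend and robust moderation there were 2, Hspa4l and Pdia3, against 540 of 9295 genes. Hspa4l differed by -0.0105 with the suffix-free probe set, where another probe set stands for the gene, by 0.14 with the mean of all probe sets, and by 0.22 to 0.37 with each array left out. By limma, the adjusted threshold was passed by 0 of the 43 members under any of the 16 alternatives. The stricter dim filter and the suffix-free probe sets left 41 and 37 of them. Across these alternatives 0 to 2 members had an unadjusted limma p under 0.05. Over all genes the count ran from 369 of 6197 with the stricter dim filter to 739 of 12393 without a dim filter. The medians of the cytosolic and the ER and unfolded protein response genes moved by less than the SD of their scores (0.16 and 0.08) under each alternative. That limit is wide beside the medians, and both changed sign under some alternatives. The cytosolic median ran from -0.07 without diploid replicate 1 to 0.13 without diploid replicate 2. The ER and unfolded protein response median ran from -0.03 without tetraploid replicate 3 to 0.08 without diploid replicate 2. Leaving out 1 array changed the sign for 9 to 14 of 43 members, with 14 without tetraploid replicate 2 and 12 without diploid replicate 1, where Hspa1b differed by -0.13. The counts of ER members highest on tetraploid replicate 3 (14 to 16 of 18) and diploid replicate 2 (14 to 16) were recomputed with other scalings and probe sets, chosen after seeing the data.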

Other observations

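Among the wider lists, 3 genes spread more between arrays of a fraction than most members did, and they were chosen after their values were seen. Ddit4 (REDD1), an inhibitor of mTORC1 on the list of ATF4 targets, was at log2 intensities of 6.74, 9.47 and 9.81 on the tetraploid arrays, against 6.90, 10.11 and 9.90 on the diploid arrays. Replicate 1 was low in each fraction, by up to 8.39-fold among tetraploid and 9.26-fold among diploid arrays, and the fractions differed by -0.30 ± 1.04 (SE, n = 3 per fraction). Fkbp5, an Hsp90 cochaperone induced by glucocorticoids, was at 8.61, 10.97 and 9.41 on the tetraploid arrays, against 8.42, 9.52 and 11.05 on the diploid arrays. Tetraploid replicate 2 and diploid replicate 3 were its high arrays, and the fractions differed by 0.003 ± 0.757 (SE). Cebpb, a transcription factor of the acute phase and of gluconeogenesis, was at 12.10, 13.04 and 12.72 on the tetraploid arrays, against 11.96, 12.71 and 13.03 on the diploid arrays, the same order of arrays as Herpud1.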
